A study of Mus musculus with 24 samples.

Results

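miR-202 is a microRNA hairpin whose arms, miR-202-3p and miR-202-5p, were each measured as a mouse miRNA on a one-color Agilent array. They were chosen as the non-control probes whose annotated miRNA name is one of these arms, and they make up 2 of the 566 mouse miRNAs on that array. The study compared 4 microarray platforms on pools of commercial mouse RNA, with 24 samples in all. Of these, the 4 Agilent samples are described here. Reference 1 mixed equal parts of testicle, ovary and embryo (10 to 12 days) total RNA, and Reference 2 did so with RNA of liver, heart and lung. The strain of the donors, and the age of those other than embryos, are not given in the sources used here. Nor is sex, beyond what testicle and ovary imply. By the paper's methods 4 arrays were run per reference, 1 array failed quality control, and 2 per reference were then picked at random. The 2 samples of each reference were both aliquots of a single pool. The spread between samples of a reference, and every p-value below, is therefore technical and says nothing of the spread between animals.

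A miRNA hairpin is cut by Drosha and then by Dicer into a short duplex, and an Argonaute protein keeps mainly one strand as the guide while the other is degraded. Which arm is kept can differ between tissues, and the arms regulate different mRNAs because target choice rests mainly on the seed, bases 2 to 8 from the 5′ end. In vertebrates miR-202 is known for expression in the gonads, and its 3p arm is counted with the let-7 family because of its seed.

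The sequences below are shown because the arms differ in their seeds and because only the 3p arm has seed relatives on the array. They are from RefSeq (GRCm38.p6), written 5′ to 3′, with both arms in capitals in the hairpin and bases 2 to 8 in capitals in the mature miRNAs.

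Mir202 hairpin: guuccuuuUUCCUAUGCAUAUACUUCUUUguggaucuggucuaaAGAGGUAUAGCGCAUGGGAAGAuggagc

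mmu-miR-202-3p: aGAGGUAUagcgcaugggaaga

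mmu-miR-202-5p: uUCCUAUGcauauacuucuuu

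mmu-let-7e-5p: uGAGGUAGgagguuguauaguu

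mmu-let-7d-5p: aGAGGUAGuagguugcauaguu

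mmu-let-7j: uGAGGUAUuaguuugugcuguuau

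The hairpin of 72 bases lies at chr7:139957689-139957760 on the minus strand, within the span of the lncRNA gene Gm16201. The 3p arm (22 bases) occupies chr7:139957695-139957716 and the 5p arm (21 bases) occupies chr7:139957732-139957752, with 15 bases of loop between them. In the minimum free energy fold predicted by ViennaRNA, 18 of the 21 bases of the 5p arm paired with bases of the 3p arm. The 3p arm had 11 G or C bases (50%), against 6 (28.6%) in the 5p arm. Over 1679 mature mouse miRNA names in RefSeq, let-7j was the 1 other miRNA with the same bases 2 to 8 as miR-202-3p, and let-7j was not found on the array by name. Bases 2 to 7 of the 3p arm were shared by 12 RefSeq miRNAs, of which 9 were on the array, namely let-7a to let-7g, let-7i and miR-98. Counted from the 5′ end, let-7d had the same base as miR-202-3p at 9 of 22 positions and let-7e at 8 of 22, so that beyond the seed the sequences differ at most positions. No RefSeq mouse miRNA shared bases 2 to 7 with miR-202-5p.

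Each array held 11540 miRNA spots, none saturated, with 20 spots for each arm of miR-202. A spot was over the negative control threshold when its signal was above the trimmed mean of 288 negative control spots plus 3 trimmed SDs. This threshold ranged from 48.7 to 54.3 intensity units over the 4 arrays. The scanner software also marks spots that are well above their background, and a miRNA was counted as well above background where at least 50% of the spots of one of its probes carried that mark. By this rule 234 and 244 miRNAs were well above background on the Reference 1 arrays, against 166 and 162 on the Reference 2 arrays.

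The 3p arm was readily seen in Reference 1 and was near background in Reference 2. The median spot signal of miR-202-3p, without background subtraction, was 118.5 and 119.25 intensity units on the Reference 1 arrays, against 50.5 and 49.5 on the Reference 2 arrays. Single spots covered 106 to 129.5 in Reference 1 and 46 to 57 in Reference 2, so that no spot of one reference fell within the range of the other. All 20 spots on each Reference 1 array were over the negative control threshold and well above background. On the Reference 2 arrays 7 and 0 of the 20 spots were over the threshold, and 1 and 0 were well above background. The Reference 2 medians lay 3.47 and 0.292 intensity units above the mean of the negative controls, against 70.7 and 75.5 units in Reference 1. The arm is spotted as 2 probes of 10 spots each, and these gave the same picture. The probe A_54_P4374 had medians of 121.25 and 123.75 in Reference 1 and 53.5 and 50 in Reference 2, and the probe A_54_P2395 had 112.25 and 116.5 in Reference 1 and 49 and 49 in Reference 2. The 7 Reference 2 spots over the threshold all belonged to A_54_P4374.

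The 5p arm was not detected on any of the arrays. Its median spot signal was 44 and 41.25 on the Reference 1 arrays, against 45 and 45 on the Reference 2 arrays, and the spots of the references overlapped. None of its 20 spots was over the negative control threshold or well above background on any array. On all 4 arrays the median lay below the mean of the negative controls, at -3.84 and -2.53 intensity units from it in Reference 1 and -2.03 and -4.21 units in Reference 2. At this signal over background a level of miR-202-5p cannot be given for either pool, and its absence is not shown.

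**Figure D1:**
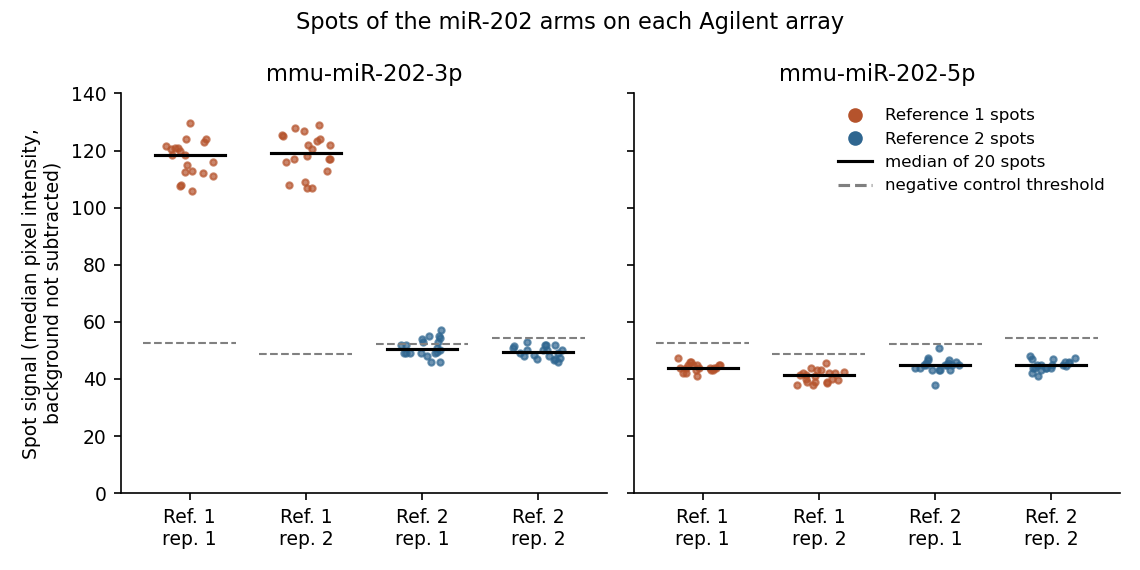
Signal of each of the 20 spots (points) of miR-202-3p and miR-202-5p on the 4 arrays, in intensity units without background subtraction, with the median of the spots (black line) and the negative control threshold of the array (dashed). The 3p spots of Reference 1 lie between 106 and 129.5, above their thresholds, whereas those of Reference 2 and all 5p spots lie around or below theirs.

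The scanner software also gives a background-subtracted total gene signal with an error for each array. For miR-202-3p it was 92.7 ± 7.12 and 100.3 ± 7.53 on the Reference 1 arrays, against 8.36 ± 2.31 and 3.46 ± 2.34 on the Reference 2 arrays (software error). The software marked the 3p arm as detected on both Reference 1 arrays and on 1 Reference 2 array, so that no fold is given on this scale. For miR-202-5p the total gene signal was -1.73 ± 3.88 and -1.39 ± 3.44 in Reference 1, against 0.414 ± 3.12 and -1.72 ± 3.28 in Reference 2. Every one of these 5p values lay within its error of 0, and the arm was marked as detected on none of the arrays.

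**Figure D2:**
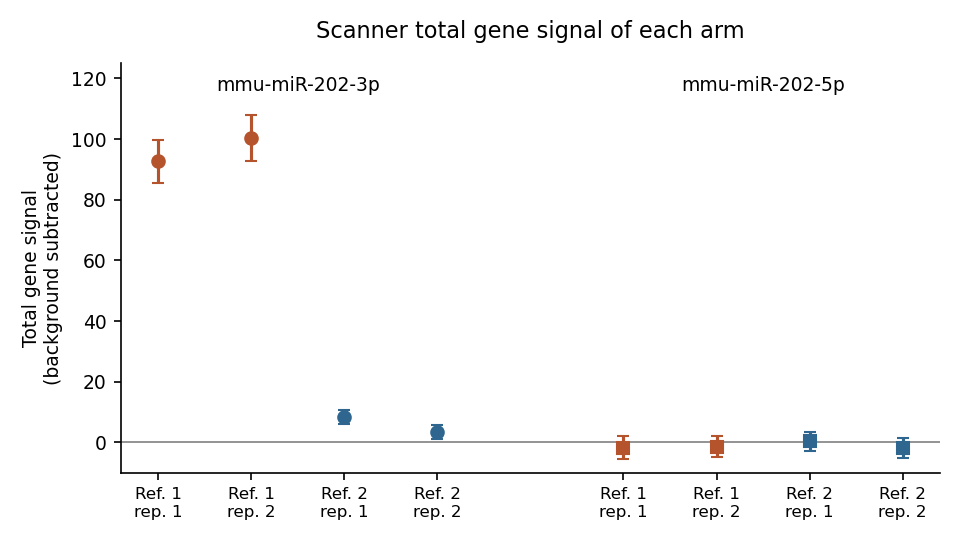
Total gene signal (background subtracted, intensity units, bars: error given by the scanner software) of miR-202-3p (circles) and miR-202-5p (squares) on each array. The 3p arm is at 92.7 and 100.3 on the Reference 1 arrays and at 8.36 and 3.46 on the Reference 2 arrays, and the 5p arm lies around 0 throughout.

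For the comparison across all miRNAs, median spot signals were put on the log2 scale and normalized by cyclic lowess, as in the study, and each miRNA was given the median of its spots. On this scale miR-202-3p had 6.61 and 6.63 in Reference 1, against 5.95 and 5.88 in Reference 2. The means were 6.62 ± 0.0084 in Reference 1 and 5.92 ± 0.0543 in Reference 2 (SD, n = 2 each), a difference of 0.70 with a standard error of 0.0341 (adjusted p = 8.62e-10 from limma). Of all 566 miRNAs, 29.3% were called higher. The values of the references did not overlap, with Reference 1 on top, as for 35.7% of all miRNAs, and the difference ranked 52 from the highest of 566. The arm's Reference 2 level was taken as no more than a bound, since it was not well above background on either array. On this scale, and for this processing only, miR-202-3p was then at least 1.55-fold higher in Reference 1. For this bound the dim mean was taken, per array, as the higher of the arm's own value and the lowest signal among probes well above background. The size of the difference depended on the treatment of the data. It was 0.56 with normexp background correction, 1.21 with median centering and 1.25 with no normalization. From the total gene signal and the processed signal, both background subtracted, it was 3.34 and 3.86. These 2 values rest on a Reference 2 signal near background and are not to be read as folds. In pooled tissue RNA, fewer cells of a type and less RNA per cell cannot be told apart. Nor can testicle, ovary and embryo be told apart as the source within Reference 1.

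The normalized log2 signal of miR-202-5p was 5.41 and 5.42 in Reference 1, against 5.51 and 5.46 in Reference 2. The means were 5.42 ± 0.0056 in Reference 1 and 5.49 ± 0.0323 in Reference 2 (SD, n = 2 each), a difference of -0.07 with a standard error of 0.0218 (adjusted p = 0.0142 from limma). The values did not overlap, as for 43.3% of all miRNAs in this direction, and the test called the arm lower, as it did 29.9% of all. Yet every spot was at background, so no fold is given. Among the 305 miRNAs without any array on which they were well above background, the differences ran between -0.41 and 0.36 with a median of -0.02, and 34 were lower than that of miR-202-5p. The call was lost without Reference 2 replicate 1, where the difference was -0.04 (adjusted p = 0.126 from limma).

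Calls were common on this array, and the calls of the arms have to be read against that. The signal in Reference 1 was the higher for 166 of the 566 mouse miRNAs (29.3%) and the lower for 169 (29.9%), so that 59.2% were called in all. The 3p arm belongs to the 261 miRNAs that stood well above background on at least 1 array, of which 129 (49.4%) were called higher and 108 (41.4%) lower, 90.8% in all. The 5p arm belongs to the 305 others, of which 37 (12.1%) were called higher and 61 (20%) lower, 32.1% in all. The higher calls were 49.6% of all calls here, against 35.7% with median centering, 23.0% with scaling to the 75th percentile, 69.2% without normalization and 67.0% with the processed signal. The detection pattern of the 3p arm, well above background on both Reference 1 arrays and on neither Reference 2 array, was shared by 87 of the 566 miRNAs. Most of these 87 were called higher too, and miR-202-3p ranked 29 among them by difference. A higher call is therefore common for this pattern and not particular to miR-202-3p.

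**Figure D3:**
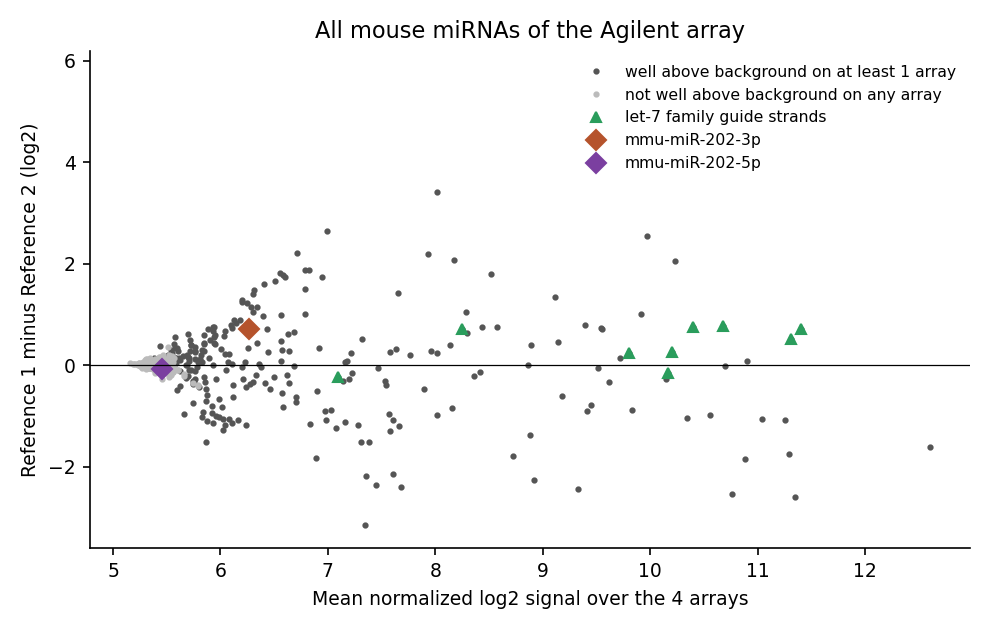
Difference between the references (log2, Reference 1 minus Reference 2) against the mean normalized log2 signal for the 566 mouse miRNAs, with the arms of miR-202 (diamonds) and the let-7 family (triangles) marked. miR-202-3p lies at 0.70 at a dim mean level, and miR-202-5p lies at -0.07 within the cloud of miRNAs at background.

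To compare the arms directly, the 5p log2 signal was subtracted from the 3p log2 signal of the same array. This within-array contrast was 1.202 and 1.206 in Reference 1, against 0.44 and 0.41 in Reference 2. Its change of 0.77 between the references (standard error 0.0281, adjusted p = 3.56e-06 from limma over 165 hairpins) was larger than the spread between arrays. Since the 5p arm was at background throughout, the contrast carries the change of the 3p arm and holds no measured ratio of the arms. It was 1.33 with median centering, scaling to the 75th percentile and no normalization alike, since these shift both arms of an array equally, and 0.62 with normexp background correction.

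Among the 165 hairpins with both arms on the array, the contrast was higher in Reference 1 for 66 (40%) and lower for 46 (27.9%), 67.9% in all. Among the 62 that are named by 3p and 5p, as miR-202 is, it was higher for 22 (35.5%) and lower for 15 (24.2%), 59.7% in all. The change for miR-202 ranked 6 from the highest of these 62 and 20 of the 165. In 11 of the 62 hairpins the 3p arm alone was well above background, in 12 the 5p arm alone, in 13 both and in 26 neither, each on at least 1 array. The arms of 17 hairpins were called in the same direction and those of 2, among them miR-202, in opposite directions, and in both of these one arm was not well above background. Of the 11 hairpins measured by the 3p arm alone, miR-465a (change of the contrast 1.51, adjusted p = 1.14e-06 from limma) and miR-743b (1.36, adjusted p = 1.96e-06 from limma), both from a cluster of testis miRNAs on the X chromosome, ranked above miR-202. At the other end, miR-126, a miRNA of endothelial cells, had a change of -1.51 (adjusted p = 5.68e-07 from limma).

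Few hairpins allowed both arms to be read in both pools. Of the 35 hairpins whose arms were each well above background on at least 1 array, 9 had both arms so in each reference, and of these 9 the contrast was higher for 3 and lower for 3. The 3 highest and 3 lowest changes among those called of the 35 are given as descriptions, because in each of these 6 hairpins at least 1 arm was well above background on no Reference 2 array. For miR-34c, a miRNA of male germ cells and multiciliated cells, the named arm minus the star arm was 3.38 and 3.27 in Reference 1, against 1.49 and 1.52 in Reference 2. For miR-34b, from the same cluster, the 3p minus 5p contrast was -3.65 and -3.65 in Reference 1, against -2.04 and -1.93 in Reference 2. In these and in miR-322, where the contrast changed by 2.46, the weaker arm was at background in Reference 2. In miR-376b (1.56), miR-9 (-0.88) and miR-299 (-0.82) both arms were. As with miR-202, these changes hold no measured ratio of the arms in Reference 2.

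**Figure D4:**
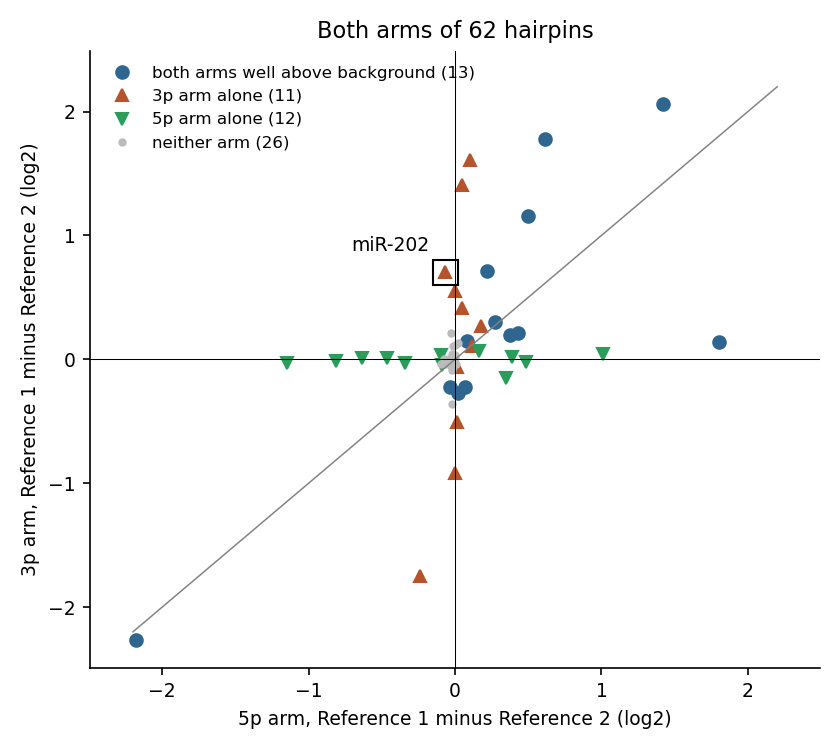
Difference between the references (log2, Reference 1 minus Reference 2) of the 3p arm against that of the 5p arm for the 62 hairpins named by 3p and 5p, with the arms that were well above background shown by symbol and the line of equal differences in grey. miR-202 (boxed) lies at 0.70 on the 3p axis and -0.07 on the 5p axis, near the vertical line where the other hairpins measured by the 3p arm alone also lie.

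The 9 seed relatives of miR-202-3p on the array, the guide strands of the let-7 family, repress cell cycle and embryonic genes and are abundant in adult tissues. All 9 were well above background in both references, unlike miR-202-3p. Of them, 7 were higher in Reference 1 and 2 were lower, with a median difference of 0.52, against -0.01 over all miRNAs. That all 9 were called is near the 90.8% called among miRNAs well above background on at least 1 array, of which 49.4% were higher and 41.4% lower. The highest were let-7c at 0.78 and let-7b at 0.76, and the lowest were miR-98 at -0.23 and let-7i at -0.15. The direction of this family was not settled, since the median was 0.19 with median centering but -0.04 with scaling to the 75th percentile and -0.02 with the processed signal. With scaling to the 75th percentile the median of all 566 miRNAs was -0.29. The let-7 median lay 0.25 above it, as far as with median centering. With the processed signal the median of the 324 miRNAs that had a value was 0.57, and the let-7 median lay at -0.58 from it. miR-202-3p was higher under both, and lay 1.27 and 3.29 above these medians.

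By Euclidean distance over the 4 centered sample values, the 5 miRNAs nearest to miR-202-3p among 260 well above background on at least 1 array were let-7e, miR-543, miR-721, miR-199b* and miR-193b. Their distances were 0.0256 to 0.0591 and their differences 0.66 to 0.75. The seed relative let-7e came nearest, with 8.59 and 8.61 in Reference 1, against 7.91 and 7.87 in Reference 2. It was well above background on all 4 arrays, and so were miR-199b* and miR-193b, whereas miR-543 and miR-721 were above it in Reference 1 alone, as was miR-202-3p. The 5 nearest to miR-202-5p were miR-706, miR-188-5p, miR-425, miR-500 and miR-342-3p, with differences of -0.09 to -0.02. They are miRNAs whose signal hardly differed between the pools, and miR-706 and miR-188-5p alone passed the test. With 4 samples these distances are descriptions of size and direction on this scale, which includes background. The total gene signal gave 3.34 for miR-202-3p, against a median of 0.94 for the let-7 family. With the processed signal these were 3.86 and -0.02. The 3p values again rest on a Reference 2 signal near background.

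Markers of the pooled tissues were read beside the arms. Of 28 male germline miRNAs, 23 were higher in Reference 1 and 0 lower (29.3% and 29.9% over all miRNAs), with a median difference of 0.46 (-0.01 over all), and 16 were well above background in Reference 1 alone. With scaling to the 75th percentile 16 were higher and 9 lower, against 123 and 411 of all 566 miRNAs. The median of the list was then 0.57, against -0.29 over all. Of the 23, 4 were at background on all arrays. The highest were miR-449a at 2.19 and miR-34c at 2.08, of the related miR-34 and miR-449 families of meiotic and postmeiotic germ cells. The lowest were miR-449b at -0.03 and miR-465b-5p at -0.0015, neither called, and 12 of the 28 had a larger difference than miR-202-3p. The summed linear normalized signal of the list was 3626 and 3609 in Reference 1, against 1574 and 1564 in Reference 2. This sum, like those of the lists below, includes background, which was not subtracted. The male germline list moved with miR-202-3p, and its part in the 3p difference was not tested.

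The miRNAs of the somatic cells of the gonads could hardly be read. Of 4 granulosa and Sertoli cell miRNAs, 0 were called higher and 1 lower (29.3% and 29.9% over all miRNAs), with a median difference of 0.0077 and a summed linear normalized signal of 180.0 and 177.8 in Reference 1, against 181.6 and 180.3 in Reference 2. Their differences were 0.05 for miR-132, 0.04 for miR-224, -0.02 for miR-383 and -0.13 for miR-212 (adjusted p = 0.000164 from limma). Of these miR-132 alone was well above background, on 1 Reference 1 array. With the processed signal, 2 of the 3 that had a value were higher (177 of 324 over all miRNAs). The median of the 3 was 1.88 (0.57 over the 324). With the total gene signal 1 of 2 was higher (96 of 216 over all). Nearly all of the list was at background, so that it gives no check on the ovary or on Sertoli cells, and the gonadal label of Reference 1 rests here on the male germline miRNAs.

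All 4 embryo miRNAs were higher (49.4% over the miRNAs well above background on at least 1 array), with a median difference of 1.58 and a summed linear normalized signal of 1225 and 1234 in Reference 1, against 232.2 and 223.4 in Reference 2. The highest were miR-10b, from a Hox cluster, at 3.41 and the imprinted miR-127 at 1.89, and the lowest were the neural miR-9 at 0.34 and miR-124 at 1.28. As the embryo list moved with the pool as well, its part in the 3p difference was not tested. All 14 miRNAs of liver, heart and striated muscle, endothelium and blood cells were lower (41.4% over the same miRNAs), with a median of -1.84. Their summed signal was 8742 and 8564 in Reference 1, against 33962 and 33946 in Reference 2. The list named no marker of lung itself. The lowest were the cardiac miR-499 at -3.16 and the muscle miR-1 at -2.59, and the least changed were the cardiac miR-208a at -0.97 and the lymphocyte miR-150 at -1.03.

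The direction of miR-202-3p and its call were the same under all 19 other treatments of the data. Of the 16 other treatments that gave a value for miR-202-5p, 13 kept its call and 3 lost it. The 5p arm had no value with the filter on miRNAs well above background, which it did not pass. It had none with the total gene signal, which was not positive on some arrays. With the processed signal it did not exceed the floor of 1 on any array.

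**Figure D5:**
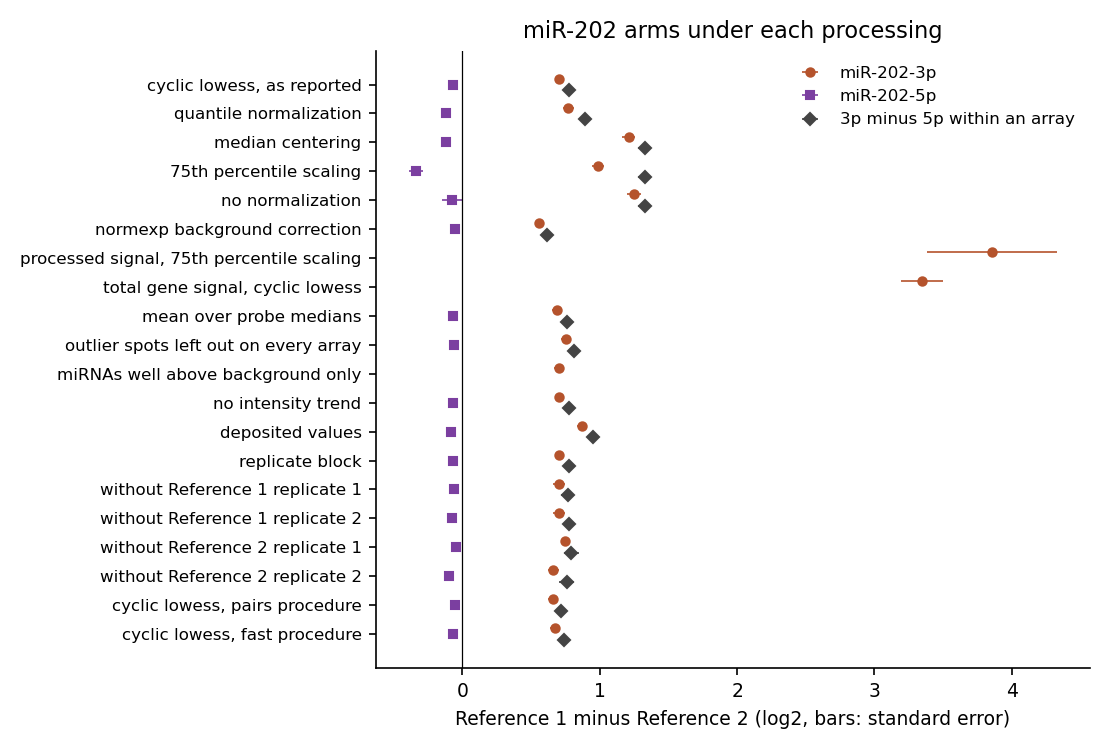
Difference between the references (log2, Reference 1 minus Reference 2, bars: standard error) of miR-202-3p, miR-202-5p and the 3p minus 5p contrast under each treatment of the data. The 3p difference is above 0 throughout. It runs from 0.56 with normexp background correction to 3.86 with the processed signal, where Reference 2 was near background. The 5p difference stays below 0 and is missing where the arm had no usable signal.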

How the data were processed

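The authors' deposited Agilent scanner files hold the intensity of each spot, from Agilent Feature Extraction 9.5.3.1 (submitters' processing notes), not yet normalized. The authors also deposited log2 values of the same samples after cyclic lowess, without background subtraction. These correlated with the recomputed log2 values at r of 0.999 or more over 560 miRNAs and served as an alternative, with column medians of 5.48 to 5.49. The deposited values gave larger differences between the references for the arms. The difference was 0.87 for miR-202-3p, against 0.70 from the recomputed values, and 0.95 for the 3p minus 5p contrast, against 0.77. All samples shared 1 slide, and the precision is limited by the number of arrays, 2 for each reference.

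Median spot signals of all non-control spots were put on the log2 scale and normalized with limma 3.58.1 in R 4.3.3. The lowess procedure whose adjustments are averaged over all other arrays was taken after the files were seen, because the methods describe it. A miRNA's reported value was the median of its spots. The references were compared with limma with an intensity trend, at a Benjamini-Hochberg adjusted p under 0.05 over 566 miRNAs or 165 hairpins. An exact permutation test of 2 against 2 samples could not go below 0.333 (two-sided). In simulated data for the comparison of all 566 miRNAs, log2 changes of 0.25 were recovered in 96.9% and those of 0.5 and 1 in 100% of changed miRNAs, with 4 false calls. The changes were added to values already normalized, with independent noise. The simulation therefore covers neither the normalization nor the effect of background on a change in RNA.

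The members and lists were chosen with earlier results of these data known. Named miRNAs were both arms, their seed relatives, the 5 nearest profiles per arm, the 3 highest and 3 lowest hairpin contrasts called with both arms well above background, and the 2 highest and 2 lowest of each list; hairpins measured by the 3p arm alone were named after their values were seen. The alternatives were other normalizations and background treatments, the spots and probes used, filters, the replicate number as a block and leaving out each sample. Of the array's names, both arms were matched to RefSeq by name, and the let-7 guides were matched to their present 5p names. The fold was predicted with ViennaRNA 2.7.2. Probes of the other 3 platforms could not be paired with miRNA names and were not analysed here.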

Additional observations from a re-analysis of the deposited data

How the results depend on the processing

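For miR-202-3p every alternative gave the same direction and call, from 0.56 to 3.86 on the log2 scale (0.66 to 0.75 when 1 sample was left out). The 3p minus 5p contrast did so under all 16 alternatives that gave a value, from 0.62 to 1.33 (0.76 to 0.79 when 1 sample was left out). For miR-202-5p the call was lost with no normalization (a difference of -0.079, adjusted p = 0.513 from limma), with outlier spots left out (-0.061, adjusted p = 0.0613 from limma) and without Reference 2 replicate 1 (-0.0442, adjusted p = 0.126 from limma), with a range of -0.10 to -0.0442 over the samples left out; the cause was not tested. The number of miRNAs that differed was 335, against 534 with scaling to the 75th percentile and 183 with the total gene signal, where 216 were tested. It was 298 to 326 when 1 sample was left out. The number of hairpins whose contrast differed was 112, against 36 with the processed signal (52 tested), 17 with the total gene signal (23 tested) and 28 with miRNAs well above background alone (35 tested), where fewer hairpins were tested. Of the hairpins called with the total gene signal, 82.4% were higher, against 58.9% here. Without 1 sample, 103 to 115 hairpins were called. With the replicate number as a block, 348 miRNAs and 107 hairpins were called, the differences stayed at 0.70 and -0.07 and the contrast at 0.77, and no call of the arms changed. Samples with the same number share only that number (deviations from the reference means correlated at r = 0.0685 across 566 miRNAs, which are not independent replicates). The pairs and fast procedures of cyclic lowess were chosen after the data were seen, and gave 0.66 and 0.67 for the 3p arm and -0.06 and -0.07 for the 5p arm. Signal over background limits the 5p arm on all arrays and the 3p arm in Reference 2. With 2 samples per reference, no sample could be tested as an outlier.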
